A study of Mus musculus with 2 samples.

Results

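The Tex genes are a group of mouse genes that share a name, "testis expressed", followed by a number. They were taken here as every gene whose symbol starts with Tex and a digit, which gave 19 of the 23234 genes with a value. The RNA-seq data are from C57BL/6 round spermatids. Wild-type animals gave 1 library, and the other 1 came from mice deficient for both Epc1 and Epc2, whose genotype label is Epc-dKO. Both libraries share strain and cell type. The sources used here do not give the age of the mice, the number of mice per library, the alleles or any Cre driver. Epc1 and Epc2 encode subunits of the TIP60 histone acetyltransferase complex. The values are FPKM, fragments divided by transcript length and by the library's mapped total, so levels can be compared between genes.

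The name Tex records where a transcript was found and not a shared sequence or function. The group therefore holds meiotic proteins, proteins of spermatids and sperm, and proteins of the endoplasmic reticulum, nucleolus and other parts that many tissues use. Spermatogonia divide by mitosis, spermatocytes pair and recombine their chromosomes in meiosis, and the round spermatids that follow build the acrosome and tail before the nucleus elongates. Transcripts made before or during meiosis can persist into round spermatids, and so a meiotic gene may have a level in these cells.

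Each genotype had 1 library, so no difference had a replicate check and no test between genotypes was possible. The log2 ratio compares FPKM + 1 between the libraries, Epc-dKO divided by wild type, and a value above 0 is higher in the library labelled Epc-dKO. Genes whose FPKM averaged at least 1 are called expressed. An expressed gene with an FPKM under 1 in 1 library reached this minimum only through the other, which fixed the sign of its ratio. The words rose and fell are kept for expressed genes whose log2 ratio passed 2-fold, a rule of size and not a test. The read depth is unknown. Epc1 had an FPKM of 11.4 in wild type against 13.6 in the library labelled Epc-dKO, and Epc2 had 7.12 and 10.5, so neither target was lower. Gene-level values include exons outside a deletion, and they do not settle what the genotype label means. The 20 round spermatid markers, all expressed, had a median log2 ratio of 0.01 with none past 2-fold. Over all 10438 expressed genes the median was -0.05, with quartiles of -0.34 and 0.24, and 9955 lay within 2-fold.

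Among the 19 Tex genes, 16 were expressed, and 1 of these fell and 0 rose in the library labelled Epc-dKO. The gene that fell was Tex101, which makes 6.25% of the expressed Tex genes. Over all expressed genes 1.88% fell and 2.75% rose, and without small RNA genes, a view added after the values were seen, 1.3% fell and 2.23% rose. A single call among 16 genes is too few to set the group apart from these shares. The median log2 ratio of the 16 was -0.14, and 10 of them lay below 0. The Tex genes as a group held a similar part of each transcriptome. Their FPKM summed to 376 in wild type against 404 in the library labelled Epc-dKO, which is 0.194% and 0.204% of all FPKM. The 3 Tex genes under the minimum were Tex12, Tex19.2 and Tex28.

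**Figure D1:**
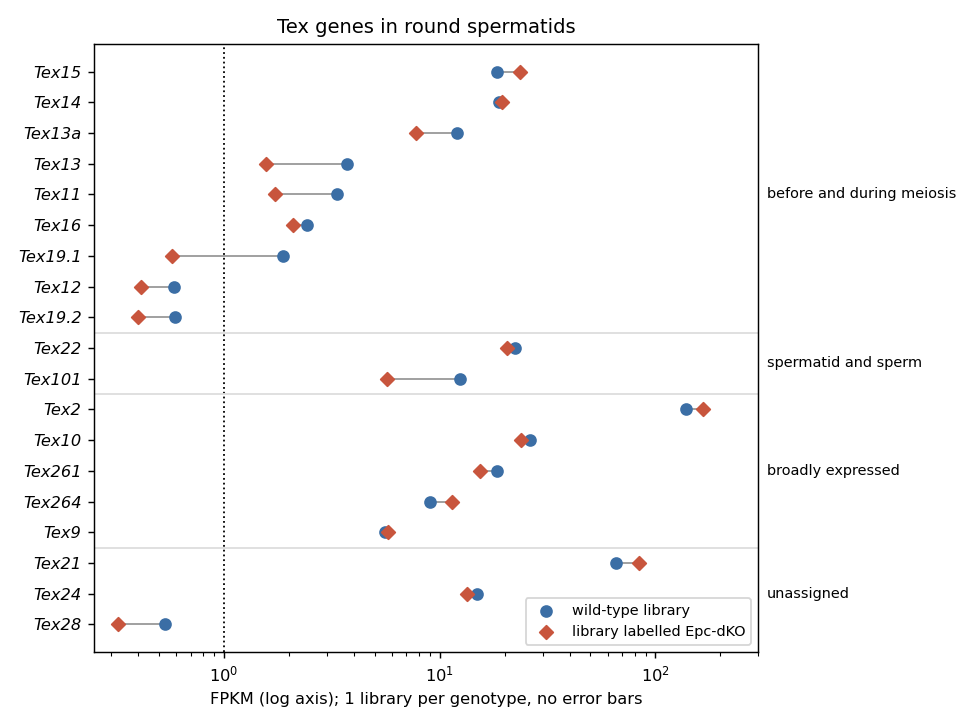
FPKM of the 19 Tex genes on a log axis in wild type (circles) and the library labelled Epc-dKO (diamonds), ordered by stage group and mean FPKM, with a dotted line at an FPKM of 1. Tex2 is the most abundant at 139 and 166, and Tex101, Tex13 and Tex19.1 have the widest gaps among expressed genes.

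The most abundant Tex gene in both libraries was Tex2, which encodes a lipid-binding protein of the endoplasmic reticulum. It had an FPKM of 139 in wild type, above 98.1% of expressed genes, against 166 in the library labelled Epc-dKO. Tex21 came next with 65.9 and 83.8. Both were somewhat higher in the library labelled Epc-dKO, with log2 ratios of 0.25 and 0.34, inside 2-fold. Tex10 followed with 26.2 in wild type, then Tex22 with 22.4, Tex14 with 18.8, Tex261 with 18.5, Tex15 with 18.4 and Tex24 with 14.9. Whether neighbours in this order differ could not be judged, since there was no spread between samples to set against their gaps.

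The meiotic genes of the group lay on both sides of 0 in log2 ratio. Tex14, which encodes a protein of the stable intercellular bridges between germ cells, had an FPKM of 18.8 in wild type against 19.5 in the library labelled Epc-dKO (log2 ratio 0.05). Tex15, required for repair of meiotic DNA breaks and for silencing of transposons by piRNA-directed methylation, had 18.4 and 23.5 (0.34). These were the 2 most abundant meiotic genes, and both were level or slightly higher in the library labelled Epc-dKO. Tex11, an X-linked gene whose protein works in crossover formation, had 3.33 and 1.72 (-0.67). Tex12, for a protein of the central element of the synaptonemal complex, had 0.588 and 0.414 and was below the minimum in both libraries. The median log2 ratio of the 3 expressed genes among these 4 was 0.05, and that of the 13 other expressed Tex genes was -0.14.

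Adding the Tex genes known from spermatogonia brought the group before and during meiosis to 9 genes, of which 7 were expressed. All 7 lay within 2-fold, as did 9955 of all 10438 expressed genes. The median log2 ratio of the 7 was -0.58, from -0.87 for Tex13 and Tex19.1 to 0.34 for Tex15. Tex19.1, whose protein restrains retrotransposons in germ cells, had an FPKM of 1.87 in wild type against 0.573 in the library labelled Epc-dKO. It reached the minimum only through wild type, which fixed the sign of its ratio. Without a minimum the group median was -0.19. Tex13, an X-linked gene that RefSeq now calls Tex13b, had 3.70 and 1.57. Its relative Tex13a had 12.1 and 7.75 (log2 ratio -0.58), and Tex16, also X-linked, had 2.42 and 2.09 (-0.14). The lowest ratios belonged to Tex13, Tex19.1 and Tex11, each with an FPKM under 4 in wild type. With a pseudocount of 0.5 in place of 1, both Tex19.1 (-1.14) and Tex13 (-1.02) passed 2-fold. With a mean FPKM of at least 5 only Tex13a, Tex14 and Tex15 remained, and the median became 0.05.

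Paralogs can share reads. Tex19.1 and Tex19.2 are adjacent on mouse chromosome 11, with 0 protein-coding genes between them in the RefSeq annotation, and their separate values are uncertain. Tex19.2 had an FPKM of 0.593 in wild type against 0.398 in the library labelled Epc-dKO. It was lower in the same direction as Tex19.1 but below the minimum in both libraries. The same limit holds for Tex13 and Tex13a.

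All of the X-linked Tex genes had a lower value in the library labelled Epc-dKO. These are Tex11, Tex13, Tex13a, Tex16 and Tex28, the last at 0.532 and 0.321. Their FPKM summed to 22.1 in wild type against 13.5 in the library labelled Epc-dKO. The 4 that were expressed had a median log2 ratio of -0.62, while the 12 expressed autosomal Tex genes had -0.04, with 6 above and 6 below 0. The chromosome as a whole lay lower too: over 323 expressed X-linked genes the median was -0.47, 83.3% were below 0, 4.95% fell and 1.24% rose, against a median of -0.03 over 10002 autosomal genes. Against the quartiles of the chromosome, -0.70 and -0.17, Tex11 and Tex13a lay inside, Tex13 below and Tex16 above. Within the group before and during meiosis, the 4 X-linked genes had a median of -0.62 and the 3 expressed autosomal genes, Tex14, Tex15 and Tex19.1, had 0.05. The grouping by chromosome was made after the values were seen.

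Markers of spermatogonia were lower beside these genes. Of 30 such markers 17 were expressed. Of these, 0 rose (where 2.75% of all expressed genes did) and 2 fell, Dmrt1 and Crabp1 (11.8%, where 1.88% did). The median was -0.72, with 16 of the 17 below 0. Gfra1, Lin28a, Sall4, Ret and Foxo1 reached the minimum only through wild type, so their sign was fixed by that rule. Under the minimum, Id4, Utf1 and Lhx1 lay above 0. On the TPM scale each library sums to 1000000, while the minimum and pseudocount stayed at 1, so genes with a lower FPKM passed. Of the markers 27 were expressed on it, with 3 above 0 and 24 below. Of the 27, 13 fell, where 6.96% of the 15151 genes expressed on that scale did. A marker that passed only through wild type again had its sign fixed. None of the 30 was listed at 0. The marker Ddx4, which spermatocytes and spermatids also express, holds most of the list's level. Without it the summed FPKM was 58.2 in wild type against 28.1 in the library labelled Epc-dKO. Lin28a and Sall4, listed by RefSeq with the earlier names Tex17 and Tex20, had 1.95 and 0.708, and 1.65 and 0.662. Of 35 spermatocyte markers, which include Tex11, Tex12 and Tex15, 29 were expressed, with a median of -0.06. Of the 29, 0 rose and 1 fell (3.45%, against 1.88% of all expressed genes), and the 35 summed to 682 and 690. The part of other germ cells in the lower values of Tex19.1, Tex11 and Tex13 was not tested, and in bulk samples fewer cells of a type and less RNA per cell cannot be told apart for any gene.

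Tex101 was the only Tex gene listed by its symbol that passed 2-fold. It encodes a GPI-anchored protein of the germ cell surface that is needed for the fertilization protein ADAM3 to reach mature sperm. Its FPKM was 12.4 in wild type against 5.69 in the library labelled Epc-dKO, or -1.003 as a log2 ratio. Only 1.83% of expressed genes had a lower ratio. The call is at the very edge of the rule: after scaling the libraries to a median ratio of 1 the value was -0.96 and did not pass. Just inside 2-fold lay Tex13 and Tex19.1, both at -0.87. The other gene of the spermatid and sperm group listed by its symbol, Tex22, had 22.4 and 20.5 (-0.12).

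Genes of the sperm surface and of ADAM3 maturation, listed beside Tex101, ranged from -0.42 to 1.26 in log2 ratio. Of 20 genes for ADAM3, its partners and the factors that mature it, 18 were expressed, 4 rose (22.2%, where 2.75% of all expressed genes did) and 0 fell (where 1.88% did), and the median log2 ratio was 0.36. Adam3 itself had an FPKM of 313 in wild type against 335 in the library labelled Epc-dKO, and Clgn, for the testis chaperone calmegin, had 314 and 296. Ace, whose testis form is needed for ADAM3 placement, rose from 49.1 to 119 (log2 ratio 1.26). Pmis2, listed as 4930479M11Rik, rose from 16.6 to 36.5 (1.09), the protease-like gene Prss37 from 5.43 to 12.5 (1.07) and Adam4 from 2.70 to 6.71 (1.06). Ly6k, whose product binds TEX101, had 4.31 and 3.65 (-0.19).

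To show where the lower members differ in sequence, the 250 bases before the transcription start are given for Tex101, for the Tex19 pair and for Tex13, read 5′ to 3′ on the gene's strand from RefSeq on GRCm38.p6. These coordinates belong to that build and not to mm9, which the submitters' processing notes name. Each CG dinucleotide, the site of DNA methylation in mammals, is in capitals.
Tex101, chr7:24672051-24672300, minus strand: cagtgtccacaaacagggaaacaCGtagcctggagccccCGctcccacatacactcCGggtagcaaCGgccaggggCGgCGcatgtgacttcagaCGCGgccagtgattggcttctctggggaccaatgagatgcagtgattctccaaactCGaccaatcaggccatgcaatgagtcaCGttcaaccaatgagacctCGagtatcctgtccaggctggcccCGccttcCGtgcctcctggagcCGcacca
Tex19.1, chr11:121145893-121146142, plus strand: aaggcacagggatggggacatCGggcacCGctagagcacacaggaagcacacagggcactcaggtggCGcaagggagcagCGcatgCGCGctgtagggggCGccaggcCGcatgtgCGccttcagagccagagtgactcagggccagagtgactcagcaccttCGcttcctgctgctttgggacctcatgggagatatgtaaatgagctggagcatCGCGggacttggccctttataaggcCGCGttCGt
Tex19.2, chr11:121118678-121118927, minus strand: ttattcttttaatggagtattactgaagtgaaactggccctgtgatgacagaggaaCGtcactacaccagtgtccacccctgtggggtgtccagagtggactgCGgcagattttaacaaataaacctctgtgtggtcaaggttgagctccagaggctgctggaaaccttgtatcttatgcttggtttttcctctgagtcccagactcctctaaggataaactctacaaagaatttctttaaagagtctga
Tex13 (RefSeq Tex13b), chrX:140813434-140813683, minus strand: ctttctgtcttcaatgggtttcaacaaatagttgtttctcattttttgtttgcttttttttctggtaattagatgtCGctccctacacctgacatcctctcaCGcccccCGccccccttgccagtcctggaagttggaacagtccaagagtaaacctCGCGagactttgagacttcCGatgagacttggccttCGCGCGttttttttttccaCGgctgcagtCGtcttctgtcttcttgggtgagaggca
Tex101 has 14 CG sites in this stretch, Tex19.1 has 15, Tex13 has 11 and Tex19.2 has 2. The adjacent paralogs Tex19.1 and Tex19.2 thus differ in CG content before the start, with more CG sites in Tex19.1 than in 72.5% of all windows and in Tex19.2 than in 19.4%. Over the first listed windows of 27025 genes the median was 6, with quartiles of 2 and 16.

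The broadly expressed Tex genes stayed within 2-fold, as did 9955 of all 10438 expressed genes. With 5 genes this does not set the group apart. All 5 were expressed, with a median log2 ratio of 0.04, and 3 lay above 0 and 2 below, though Tex9 moved to -0.0001 with the upper quartiles made equal. Tex264, for a receptor that feeds endoplasmic reticulum into autophagy, had an FPKM of 8.98 in wild type against 11.4 in the library labelled Epc-dKO (0.32). Tex261, for an endoplasmic reticulum membrane protein linked to cargo export, had 18.5 and 15.4 (-0.25). Tex10, a partner of PELP1 in ribosome maturation, had 26.2 and 23.8 (-0.14), and Tex9 had 5.59 and 5.77 (0.04). With Tex2 at 0.25, none moved by more than 0.32 on the log2 scale. Of the 3 genes without a stage, Tex21 had 0.34, Tex24 had 14.9 and 13.3 (-0.15), and Tex28 was under the minimum.

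Many Tex genes stand in the table under another name. RefSeq gives 18 further Tex symbols whose clone name or predicted gene name is a row of the table; they were matched after the values were seen and are outside the 19. All but Tex46 were expressed, and of these 17 genes 4 rose (23.5%) and 0 fell, where 2.75% and 1.88% of all expressed genes did. Tex37 and Tex50, 2 of the 4, had an FPKM under 1 in wild type and reached the minimum only through the library in which they were high, so these shares describe the genes and set them apart from no others. Their median log2 ratio was 0.27, with 11 above and 6 below 0. In this set the 14 genes of the spermatid and sperm group had 13 expressed members with a median of 0.64, and all 4 that rose belonged to it.

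The genes that rose were Tex37, Tex35, Tex50 and Tex44. Tex37, listed as 1700011F03Rik, rose from an FPKM of 0.895 in wild type to 5.67 in the library labelled Epc-dKO (log2 ratio 1.82). Tex35, listed as 1700057K13Rik, rose from 8.63 to 22.7 (1.30). Tex50, listed as 4930469G21Rik, rose from 0.935 to 3.58 (1.24), and Tex44, listed as 1700019O17Rik, rose from 2.51 to 6.73 (1.14). Except for Tex35, these genes had an FPKM under 3 in wild type, and with a mean FPKM of at least 5 only Tex35 was left of the 4. Next among the expressed genes of this set came Tex45, at 3.04 and 6.47 (0.88), inside 2-fold. Tex52, at 1.49 and 2.92 (0.65), and Tex47, at 14.4 and 23.0 (0.64), lay further inside. Tex46, under the minimum, had 0.289 and 1.52.

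Among the genes of this stage listed under another name, the 4 most abundant in wild type (Tex33, Tex38, Tex48 and Tex36) had ratios below 0 and inside 2-fold. Tex33, listed as 1700061J05Rik, had an FPKM of 238 in wild type, above 99.3% of expressed genes, against 181 in the library labelled Epc-dKO (log2 ratio -0.40). Tex38, whose protein works with the palmitoyltransferase ZDHHC19 in shaping the sperm head, had 23.5 and 21.9 (-0.10). Tex48 had 19.5 and 18.5 (-0.07) and Tex36 had 16.6 and 13.7 (-0.26). Tex55, for a protein that binds protein kinase A, had 7.05 and 8.79 (0.28), and Tex43 had 4.72 and 5.63 (0.21). The ratios of the expressed spermatid and sperm genes ranged from -1.003 for Tex101 to 1.82 for Tex37. Tex37 reached the minimum only through the library labelled Epc-dKO. With 1 library per genotype there was no spread to judge this range against. The rest of the set, Tex29, Tex26, Tex30 and Tex13c1, had ratios from -0.28 for Tex30 to 0.27 for Tex26. Tex13c1, listed as Gm362, is X-linked, with 12.9 and 10.5 (-0.27).

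**Figure D2:**
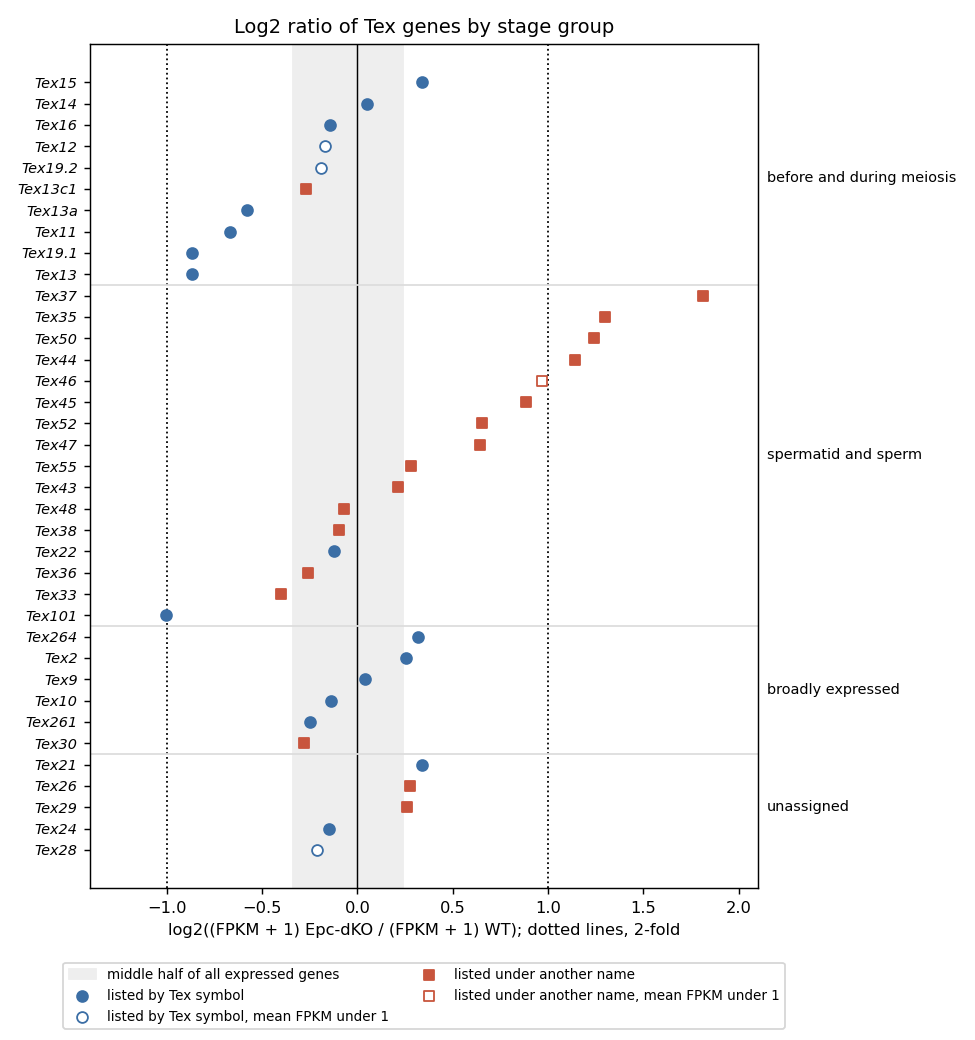
Log2 ratio of (FPKM + 1), the library labelled Epc-dKO over the wild-type library, for 19 genes listed by a Tex symbol (circles) and 18 listed under another name (squares), by stage group; open symbols have a mean FPKM under 1, dotted lines mark 2-fold and the shaded band spans the quartiles of all expressed genes, -0.34 and 0.24. Tex37, Tex35, Tex50 and Tex44 lie past 2-fold on the right and Tex101 lies at the left line.

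Most markers of elongating spermatids had a higher value beside these 4 genes. All 15 were expressed, and 7 rose (46.7%, where 2.75% of all expressed genes did) and 0 fell (where 1.88% did). In log2 ratio 13 lay above 0 and 2 below, and the median was 0.75. Their summed FPKM was 946 in wild type against 2238 in the library labelled Epc-dKO. The list holds the protamine and transition protein genes, and Prm2 alone went from 82.8 to 675. The 2 below 0 were Prm3, with 16.1 and 11.5 (-0.45), and Hils1, with 33.6 and 23.1 (-0.52). The part of later spermatids in the higher values of Tex37, Tex35, Tex50 and Tex44 was not tested. Transcript length also moved with the calls. The longest annotated transcripts of these genes are 814 nt for Tex37, 912 nt for Tex35, 1192 nt for Tex50 and 1724 nt for Tex44. Over all expressed genes, small RNA genes included, 10.9% rose at 1000 nt or less, 3.48% between 1000 and 2000 nt and 1.59% above 2000 nt. Leaving out small RNA genes lowered the share that rose over all lengths from 2.75% to 2.23%. Shares by length were not computed without them, so the share of short protein-coding genes is not known here. The part of length in these values was not tested. Short transcripts were not uniformly higher among Tex genes, since Tex48 with 677 nt and Tex38 with 802 nt lay below 0.

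**Figure D3:**
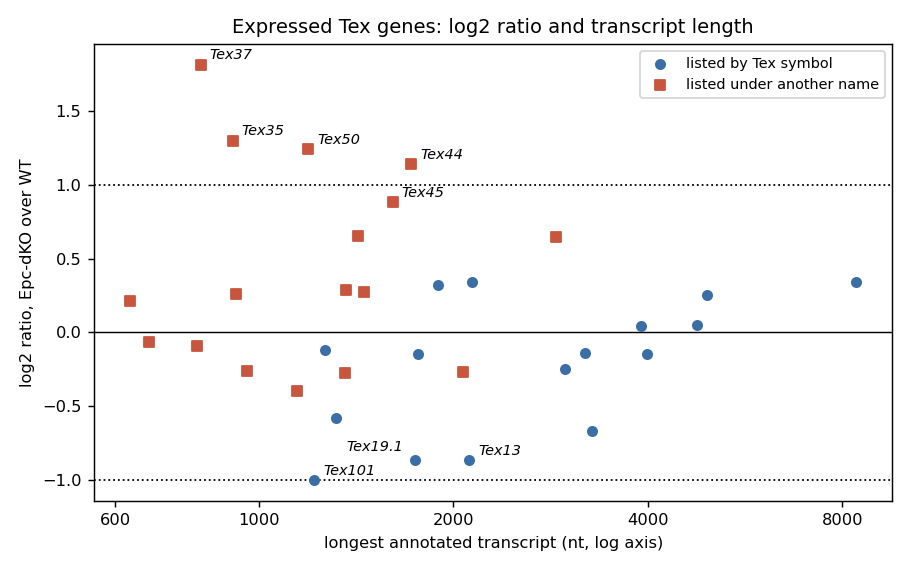
Log2 ratio of expressed Tex genes against the longest annotated transcript in nt (log axis), for genes listed by a Tex symbol (circles) and under another name (squares), with dotted lines at 2-fold. The 4 genes past the upper line have transcripts of 814 to 1724 nt, and Tex101, at the lower line, has 1220 nt.

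The sequence before the start of Tex37 and Tex35, which had the 2 highest log2 ratios with a pseudocount of 1, is given in the same way, 250 bases from RefSeq on GRCm38.p6 with CG in capitals, beside those of the lower genes above. With a pseudocount of 0.5 Tex50 (1.51) stood above Tex35 (1.35).
Tex35, chr1:157108659-157108908, minus strand: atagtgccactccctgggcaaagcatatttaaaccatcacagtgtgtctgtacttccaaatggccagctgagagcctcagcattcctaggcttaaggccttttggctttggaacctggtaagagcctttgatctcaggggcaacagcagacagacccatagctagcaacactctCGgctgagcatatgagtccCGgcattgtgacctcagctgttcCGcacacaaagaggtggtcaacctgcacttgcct
Tex37, chr6:70918923-70919172, minus strand: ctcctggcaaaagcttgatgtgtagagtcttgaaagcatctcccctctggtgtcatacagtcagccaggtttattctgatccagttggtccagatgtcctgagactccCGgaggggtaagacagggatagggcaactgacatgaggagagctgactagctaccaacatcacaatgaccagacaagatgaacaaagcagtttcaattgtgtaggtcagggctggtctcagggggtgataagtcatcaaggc
Tex35 has 3 CG sites and Tex37 has 1. These are fewer than in Tex101, Tex19.1 and Tex13, but Tex19.2 has 2, and other genes with a ratio below 0 have few as well, with 0 in Tex16, 1 in Tex36, 2 in Tex38 and 3 in Tex33. The count differed between stage groups. The 13 spermatid and sperm genes with a window had a median of 3 CG sites and at most 14, in Tex101, while the 6 broadly expressed genes had a median of 17.5 and at least 12, and the 7 genes before and during meiosis had a median of 11. Tex2 had the most, 34, and Tex16, Tex28 and Tex45 had 0. Windows were found for 14 of the 19 genes and for 16 of the 18 listed under another name.

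The 3 named regulatory motifs were rare in these windows and in all 27025, and 14 and 16 windows are too few to set the Tex shares apart. The cAMP response element TGACGTCA, bound by CREM in spermatids, was in 0 of the 14 windows and 0 of the other 16, against 1.62% of the 27025 windows. The E-box CACGTG was in 1 of 14, Tex12, and in 1 of 16, Tex36, against 6.05%. The sequence GTTGCCA, a core of the X-box bound by RFX factors, was in 0 of 14 and in 1 of 16, Tex33, against 3.69%. Each motif was searched on both strands within the 250 bases, and the 3 do not overlap in any Tex window, since no window held more than 1 of them. A match describes the letters only.

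Partners of the meiotic Tex proteins lay within 2-fold in the values reported, as did 9955 of all 10438 expressed genes. Lists of 6 to 10 expressed genes are too short to be set apart from that share. On the TPM scale, on which 6.96% of all expressed genes fell, 1 of 8 crossover genes and 2 of 10 genes listed with Tex15 fell. From 15 crossover gene names listed beside Tex11, which include aliases of the same gene, 8 genes were in the table. Of these 6 were expressed, with 0 past 2-fold and a median log2 ratio of 0.03. The most abundant, Sycp2, had an FPKM of 14.4 in wild type against 13.8 in the library labelled Epc-dKO, and Hsf2bp had 4.78 and 5.32. The 7 synaptonemal complex genes listed with Tex12 were all expressed, with a median of -0.13 and 0 past 2-fold. All 7 lay below 0, and 5 did after scaling to a median ratio of 1. Syce1, for a central element protein, had 115 and 115, and Syce2, whose product forms a complex with TEX12, had 20.8 in both. Syce3 had 5.42 and 3.10 (-0.65). Per length, the level of Tex12 was below that of each of these 7 genes in both libraries.

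The bridge genes listed with Tex14 numbered 8, all expressed, with 0 past 2-fold and a median of -0.16. Kif23, the kinesin of the midbody, had 17.8 and 15.7, and Rbm44 had 15.4 and 13.8. Cep55, whose product TEX14 binds, had 7.67 and 8.41 (0.12). Of 13 recombination and transposon silencing genes listed with Tex15, 10 were expressed, with 0 past 2-fold and a median of -0.30. Mael, a piRNA pathway gene, had 211 and 210, and Tdrd9 had 26.4 and 24.2. While Tex15 lay above 0, 9 of these 10 lay below it, or 8 after scaling to a median ratio of 1, with Dmc1, chosen after its values were seen, at 2.19 and 0.762 (-0.85).

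Partners of the other Tex proteins gave few calls. The gene once named Tex40 is Catsperz, for a subunit of the CatSper calcium channel of the sperm tail, listed as 1700019N12Rik with an FPKM of 110 in wild type against 89.1 in the library labelled Epc-dKO (log2 ratio -0.30). The 11 other channel genes found, from 15 listed names that include an alias, had a median of 0.28 with 9 above 0 and 0 past 2-fold. Among all 10438 expressed genes, 9955 lay within 2-fold too. Catsper2 had 183 and 171, and C2cd6, listed as Als2cr11, had 103 and 148 (0.52). Of the 7 genes that act with Tex10, 0 rose and 1 fell (14.3%, where 1.88% of all expressed genes did), with a median of -0.59. A single call among 7 genes is too few to set the list apart from that share. The one that fell was the X-linked Las1l, from 2.40 to 0.694 (-1.01), a call lost after scaling to a median ratio of 1, and the most abundant were Pelp1 with 42.4 and 39.7 and Mdn1 with 15.5 and 15.6.

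Among 8 expressed receptors of endoplasmic reticulum autophagy, the class to which TEX264 belongs, 1 rose and 0 fell, with a median of -0.11. The 1 that rose makes 12.5%, where 2.75% of all expressed genes rose. Retreg1, listed as Fam134b, rose from 1.82 to 5.41 FPKM (1.19), while its relative Retreg2, listed as Fam134a, had 77.1 and 52.1 (-0.56) and Rtn3 had 31.2 and 29.9. Of 13 genes of the COPII coat, which carries cargo out of the endoplasmic reticulum, 11 were expressed, and 1 rose (9.09%) and 0 fell. Their median was -0.02 (0.04 after scaling to a median ratio of 1). A single call is too few to set either list apart from the share of all expressed genes. Sec23a rose from 2.88 to 7.70 (1.17), Sec24b had 54.8 and 59.3, and Sec31a had 56.7 and 56.1.

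**Figure D4:**
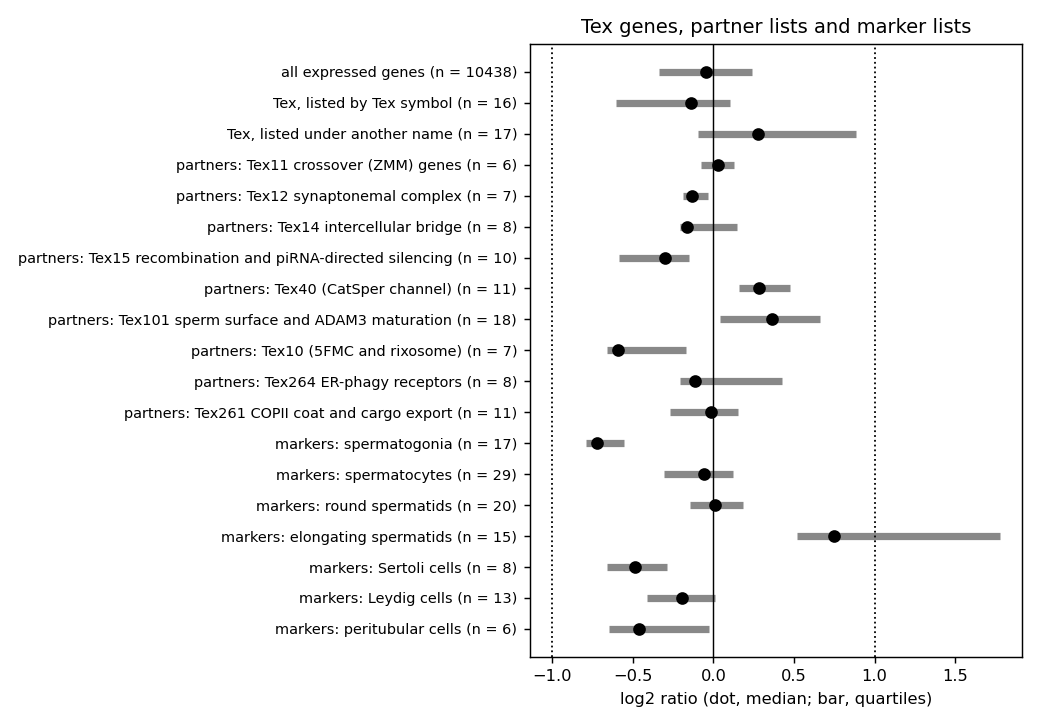
Median (dot) and quartiles (bar) of the log2 ratio, the library labelled Epc-dKO over the wild-type library, over the expressed members of each list, whose number is n; dotted lines mark 2-fold. Tex genes listed by symbol have a median of -0.14 beside -0.05 for all expressed genes, spermatogonial markers one of -0.72 and elongating spermatid markers one of 0.75.

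Markers of somatic testis cells ranged from near 0 to levels like that of Tex101. Of 27 Sertoli cell markers with a row, 8 were expressed, with a median of -0.49, and the 27 summed to an FPKM of 35.7 and 36.2. Of the 8, 1 rose (12.5%, where 2.75% of all expressed genes did) and 0 fell (where 1.88% did). The one that rose was Tjp1, from 9.45 to 20.1, a call lost with equal upper quartiles. Leydig cell markers summed to 68.5 and 50.6, with 13 of 18 expressed, 0 that rose and 3 that fell (23.1%, against 1.88%). These were Insl3 from 14.9 to 6.79, Ptgds from 9.29 to 3.09 and Agt from 8.96 to 3.54, and 2 of the 3 calls held after scaling to a median ratio of 1. Peritubular markers summed to 38.3 and 51.3, with 6 of 18 expressed, 4 of the 6 below 0 and a median of -0.46. Tagln and Col1a1 reached the minimum only through wild type, which fixed their sign. The same holds for Vim and Nr5a1 of the Sertoli cell list, and Nr5a1 is also in the Leydig cell list. Of the 6 peritubular markers, 1 rose (16.7%, against 2.75%) and 0 fell. The one that rose was Actg2, from 15.3 to 36.2, and without it, a view added after the values were seen, the sums were 23.0 and 15.1. Endothelial, blood and immune cells had 1 expressed marker of 20, and Hbb-b1 and Hba-a1 were listed at 0 in both libraries. The defining Sertoli cell genes Sox9 and Amh were at 0.192 and 0.180, and at 0.166 and 0.0502. The part of somatic cells in the value of Tex101 was not tested.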

How the data were processed

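The deposited table gives FPKM for both libraries. The submitters' processing notes name Cufflinks 2.2.1 and mm9; an aligner, annotation, strand setting or scaling is not given in the sources used here. Per the labels' protocols the libraries were directional and made from total RNA. Of 23235 rows, 1 held library codes and was left out, and 0 symbols were duplicated. FPKM holds no counts, so depth is unknown and no interval was computed. Log2 ratios used a pseudocount of 1, a minimum mean FPKM of 1 and a 2-fold rule, with no test, and the calculation was tested on simulated data. Named were all expressed Tex genes, Epc1, Epc2, and in each partner list the 2 most abundant and every called gene; others were chosen after their values were seen. Members and lists were chosen with earlier results of these data known. Stage groups rest on textbook knowledge. Names and chromosomes came from RefSeq (GRCm38.p6, all 19 Tex genes matched), transcript lengths from GENCODE M21 (98.6% of expressed genes). Alternatives varied pseudocount, minimum, scaling, fold rule and grouping. Python 3.11.15, NumPy 2.4.6, pandas 2.3.3 and Matplotlib 3.10.9 were used.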

Additional observations from a re-analysis of the deposited data

How the results depend on the processing

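Among the 33 expressed Tex genes and the 4 under the minimum, only Tex9 crossed 0 under the pseudocounts and scalings tried, at -0.0001 with equal upper quartiles. The number of Tex genes that fell, 1 in the values reported, was 3 with a pseudocount of 0.1, 3 with 0.5 and 3 on the TPM scale (Tex101, Tex13 and Tex19.1 in each), while the share of all expressed genes that fell went from 1.88% to 6.25%, 3.49% and 6.96%. The number was 0 with a median ratio of 1 and 0 under a 4-fold rule. On the TPM scale the minimum and pseudocount stayed at 1 while the values were larger, so genes with a lower FPKM passed. Of the genes listed under another name, 4 of which rose, 5 rose with a pseudocount of 0.1 (Tex45 added; 4.15% of all expressed genes), 6 on the TPM scale (Tex45 and Tex46 added; 3.6%), 1 when a mean FPKM of at least 5 was required and 0 under the 4-fold rule. Under that minimum the median log2 ratio became -0.041 for Tex genes, 0.072 for those under another name and 0.052 for the group before and during meiosis, whose sign changed because the low genes left. That group stood at -0.19 without a minimum, -0.43 on the TPM scale and 0.052 with only the 4 meiotic genes of the rule. The unassigned group stood at -0.15, -0.19 and -0.365 in the same settings, from 0.10. With Tex101 moved to the meiotic group, the spermatid and sperm group held Tex22 alone at -0.12. Over the 5 settings that can move a gene's own ratio, the single-gene values kept their side of 2-fold in 156 of 165 comparisons. No paired analysis was possible because there is 1 library for each genotype. Unknown depth limits statements on low genes.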
